A study of Drosophila melanogaster with 2 samples.

Results

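The genes described here encode the proteins of the cytosolic ribosome of Drosophila melanogaster. They were chosen by a rule on gene names, with earlier results of these data known. The rule took protein-coding genes of the Ensembl dm6 models with symbol RpL, RpS or RpLP followed by a number and at most 1 letter. It also took sta (stubarista), which encodes the small subunit protein RpSA. The rule gave 82 of 13968 protein-coding genes, 46 of the large (60S) and 36 of the small (40S) subunit. The data are peak lists of a chromatin immunoprecipitation with sequencing (ChIP-seq) on whole embryos aged 0 to 24 h from a transgenic line, chm-GFP, that expresses chameau (chm) fused to eGFP, precipitated through the GFP tag. There was 1 group with 2 biological replicates, so no treatment or genotype was compared. What drives the fusion is not given in the sources used here, and the control experiment that the labels name was not used here. Whole embryos mix tissues and stages, so strong binding in few cells and weak binding in many cannot be told apart.

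Each ribosome holds 1 copy of most of these proteins (the stalk proteins RpLP1 and RpLP2 are present in more than 1), so cells make them in matched amounts and their genes are among the most highly transcribed. In flies, loss of 1 copy of many of these genes gives the Minute phenotype of slow growth and thin bristles. Their promoters are known for starting transcription inside a run of pyrimidines (C and T), at a core element called TCT, in place of the usual initiator, and many lack a TATA box. Chameau belongs to the MYST group of enzymes, which add acetyl groups to histone tails.

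The start regions are shown first, because the run of C and T in them is the feature that most members share. Each line runs 5′ to 3′ along the gene's own strand, from 60 bases before to 20 bases after 1 annotated start, the start with the most transcripts, in the RefSeq release 6 sequence of the dm6 assembly. Capitals mark the longest unbroken run of C and T within 20 bp of the start, where it has at least 10 bases, and any match to TATCGATA, GGTCACAC (either strand) or GCAGCCAA. RpL8, RpL14 and RpL24 had strong peaks and long runs, while RpL7 and RpS27, the strongest of all, had no run of 10. RpL9 and RpL21 had long runs and no peak.
RpL8 (chr3L:2587396-2587476, plus strand): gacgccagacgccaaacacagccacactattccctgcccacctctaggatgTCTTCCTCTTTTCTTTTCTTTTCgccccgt
RpL14 (chr3L:8600946-8601026, plus strand): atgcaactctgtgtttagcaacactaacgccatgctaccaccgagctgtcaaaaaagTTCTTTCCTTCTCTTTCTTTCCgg
RpL24 (chr2L:13395072-13395152, minus strand): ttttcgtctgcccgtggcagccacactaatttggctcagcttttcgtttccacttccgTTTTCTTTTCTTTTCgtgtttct
RpL7 (chr2L:10200944-10201024, plus strand): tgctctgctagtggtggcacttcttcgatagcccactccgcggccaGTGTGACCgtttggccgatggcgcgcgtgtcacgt
RpS27 (chr3R:25247494-25247574, minus strand): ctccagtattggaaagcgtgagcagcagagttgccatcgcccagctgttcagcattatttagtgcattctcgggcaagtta
RpL9 (chr2L:11004133-11004213, minus strand): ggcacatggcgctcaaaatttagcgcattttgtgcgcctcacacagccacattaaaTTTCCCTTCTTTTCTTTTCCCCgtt
RpL21 (chr2L:22247813-22247893, minus strand): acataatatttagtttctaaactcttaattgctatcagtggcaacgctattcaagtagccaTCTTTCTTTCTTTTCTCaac

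A run of at least 10 pyrimidines lay within 20 bp of the start in 48 of 82 members (58.5%) against 2.28% of all protein-coding genes. The longest was that of RpL8 with 23 bases, followed by RpL14 and RpL9 with 22. The median longest run was 11 bases in the members and 4 in all genes. Members without a peak held such a run in 80% of cases (16 of 20) and members with a peak in 51.6% (32 of 62), so the run was not confined to the genes with a peak. This feature was chosen after the sequences were seen.

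Chameau-eGFP had a peak at the start of 62 of the 82 genes (75.6%, 95% Wilson interval 65.3 to 83.6%) where 16.8% of all protein-coding genes had one. A gene was counted as having a peak when a summit, the highest point of a peak, lay within 500 bp of any of its transcript starts. The list used throughout is the authors' conservative list, made from peaks ranked in both replicates and kept at an irreproducible discovery rate (IDR) of at most 0.01; the IDR measures how far ranks agree between sets of peaks. Wilson intervals cover counting error over genes only. Large subunit genes had a peak in 35 of 46 cases (76.1%) and small subunit genes in 27 of 36 (75%), so the subunits were alike in this list. The pooled list, the authors' other list for both replicates, gave 65 members (79.3%) against 21.2% of all genes.

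The replicates taken singly gave similar shares. In the replicate 1 list 58 members (70.7%) had a peak against 13.5% of all genes, and in the replicate 2 list 62 members (75.6%) against 17.2%. The mean over replicates was 73.2% ± 3.45 (SD, n = 2). Large subunit genes gave 35 and 34 of 46, whereas small subunit genes gave 23 and 28 of 36. The small subunit thus held most of the difference in these counts. With 2 replicates the SD describes only these samples. Of the members, 55 had a peak in the conservative list and in both replicate lists. RpL29, RpS15, RpS26, RpS28a and RpS30 had one in the conservative and the replicate 2 list. All of these but RpS28a had similar ranked signals in both replicates, but in replicate 1 they did not pass the IDR threshold. Their signals in replicates 1 and 2 were 63.9 and 59.1 (RpL29), 39.6 and 38.1 (RpS15), 50.4 and 46.8 (RpS26), and 41.5 and 46.9 (RpS30). RpL6 was the 1 member with a conservative peak in neither replicate list. Its conservative signal of 64.0 was the lowest of any member, and its ranked signals in the replicates were 33.5 and 31.6.

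**Figure D1:**
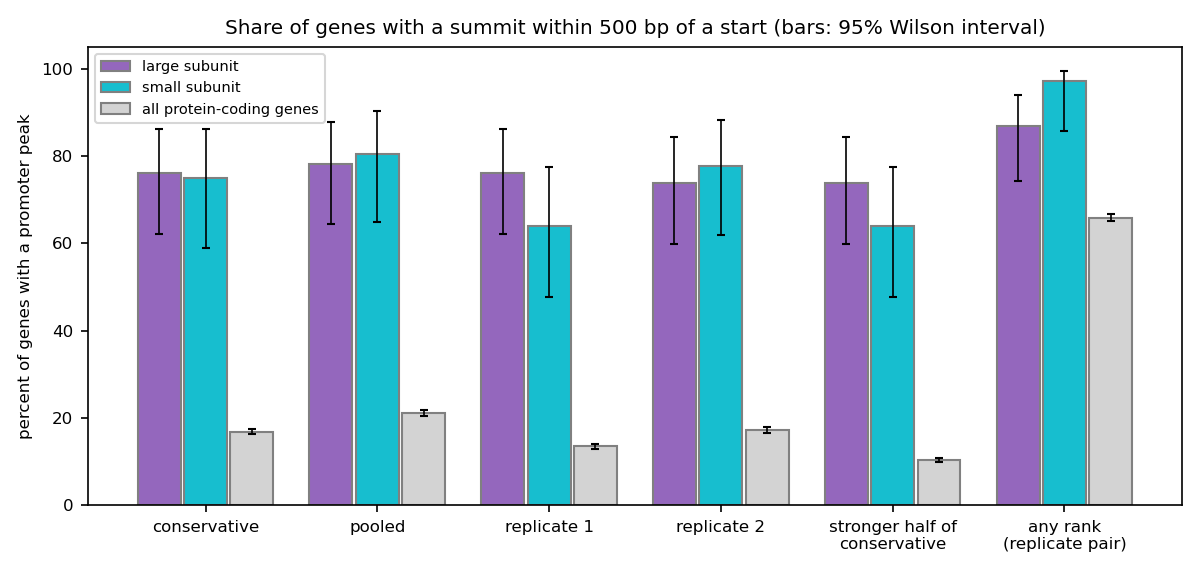
Percent of genes with a summit within 500 bp of a start (y axis) in 6 lists (x axis), for large subunit genes, small subunit genes and all protein-coding genes, with 95% Wilson intervals as bars. Both subunits stand above all genes in every list, and small subunit genes vary more between replicates 1 and 2 (63.9% and 77.8%) than large subunit genes (76.1% and 73.9%).

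Peaks at these genes were also stronger than those at other genes. The deposited signal is the peak caller's own value on a scale that is not stated, so signals were compared only within a list. In the conservative list the members' median signal was 171 (quartiles 128 and 227, range 64.0 to 492), against a median of 108 over all 2350 genes with a peak. Of the 62 members, 54 lay above that median and 8 at or below it. The highest 10% of all conservative peaks began at a signal of 212, which 19 members (30.6%) reached, against 13.2% of all genes with a peak. When the list was cut to its stronger 50% of peaks, 57 members (69.5%) still had one, against 10.3% of all genes. The members held 62 separate peaks, ranked from 62 to 3592 of 4195. They were therefore strong as a group, but the highest-ranked member peak was still only number 62.

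Large subunit genes had the stronger peaks, with a median signal of 200 against 150 for small subunit genes. The order held in both replicates, with 110 against 74.9 in replicate 1 and 99.7 against 69.6 in replicate 2 (medians over the 35 and 27 genes with a conservative peak, from each replicate's ranked list). The ranges overlapped widely, from 64.0 to 492 for the large and from 76.6 to 412 for the small subunit. Of the 12 strongest members, 10 belonged to the large subunit; RpS27 and RpS28b were the others.

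RpL7, whose protein sits on the surface of the large subunit, had the strongest peak, with a conservative signal of 492. Its own signals were 314 in replicate 1 and 173 in replicate 2, the highest of any member in replicate 1. The conservative peak (2L, 10200939 to 10201138) had its summit 38 bp inside the gene, in the 5′ UTR. The replicate 2 summit lay at the same place, but that of replicate 1 lay 46 bp upstream of the start. RpS27, a zinc-binding protein of the small subunit, followed with a conservative signal of 412 and signals of 240 and 180 in replicates 1 and 2. Its peak (3R, 25247413 to 25247624) had its summit 4 bp upstream of the start. Both genes led in both replicates.

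RpL23A, which lies at the exit of the peptide tunnel, had a conservative signal of 337 (3L, 1668656 to 1668801), with 196 in replicate 1 and 129 in replicate 2. RpL24, which helps to bridge the subunits, had 327 (2L, 13395074 to 13395212), with 156 and 168. RpS28b, near the mRNA exit, had 318 (X, 9554499 to 9554680), with 196 and 122. Replicate 1 was thus well above replicate 2 for RpL23A and RpS28b but not for RpL24. RpL32, long used as the reference gene Rp49 in fly expression work, had 310 (3R, 30046116 to 30046278), with 157 and 150. RpL8, next to the peptidyl transferase centre, had 306 (3L, 2587361 to 2587537), with 151 and 161. RpL32 and RpL8 differed little between replicates. The rest of the 12 strongest were RpL28 and RpL14 at 292, RpL41, which encodes a very short peptide, at 287, RpL30 at 283 and RpL13 at 264. Their signals ran from 122 to 185 in replicate 1 and from 104 to 150 in replicate 2.

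**Figure D2:**
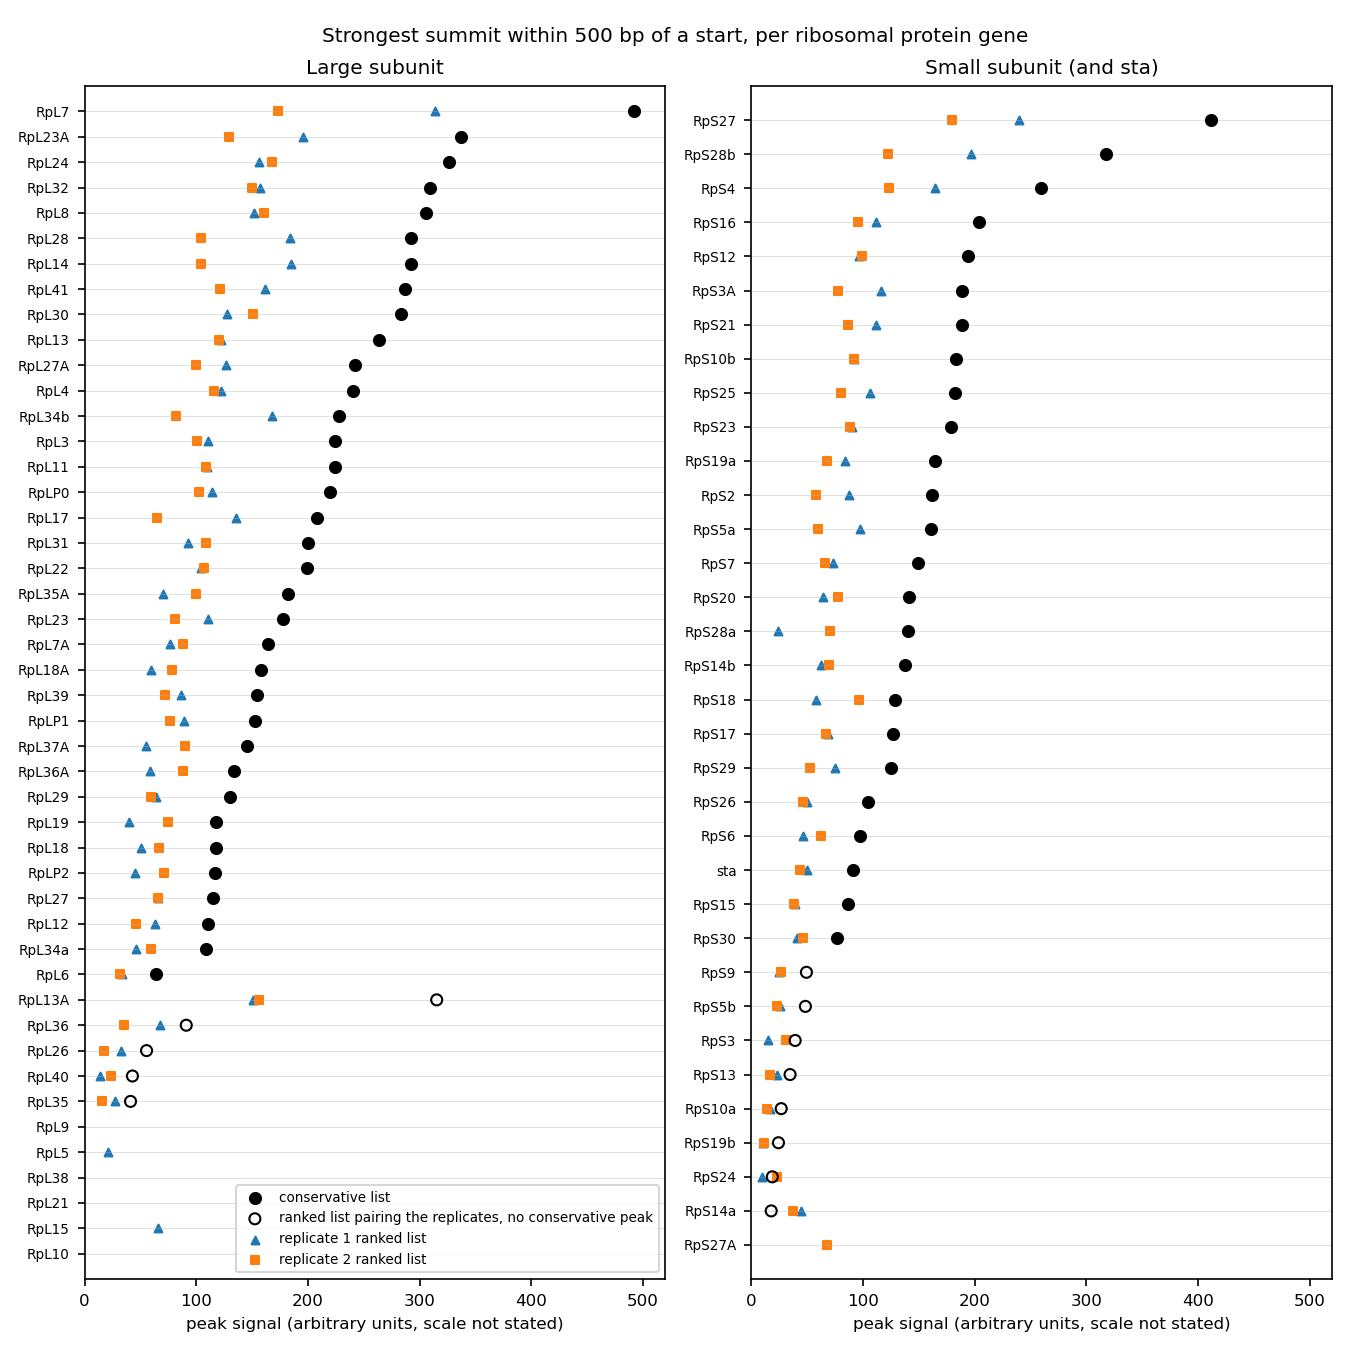
Peak signal (x axis, arbitrary units) of the strongest summit within 500 bp of a start for the ribosomal protein genes (y axis), by subunit, with 80 of 82 listed and RpL9, RpL10, RpL21 and RpL38 left empty because no list gave them a peak: filled circles are the conservative list, open circles the ranked list pairing the replicates for genes with no conservative peak, triangles and squares the ranked lists of replicates 1 and 2. RpL7 (492) and RpS27 (412) lead their subunits, and RpL13A has an open circle at 315 among genes that otherwise reach at most 91.1.

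At the low end, 8 members lay below the median of all genes with a peak, and 7 of them belonged to the small subunit. Among them were RpL6 (64.0), RpS30 (76.6), RpS15 (87.2), sta (91.5), RpS6 (97.1) and RpS26 (104), all conservative signals, chosen after their values were seen. RpS6 is the ribosomal protein phosphorylated by S6 kinase, and RpS30 is made as a fusion with a ubiquitin-like protein. Several of them were missing from replicate lists: RpS15, RpS26 and RpS30 from that of replicate 1, and RpL6 from both.

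Replicate 1 gave the higher signal for 40 of the 62 members (64.5%). Over the 2329 protein-coding genes with a conservative peak and a summit in both replicates' ranked lists, the share was 52.7%. For the members the median ratio of replicate 1 to replicate 2 was 1.07. It ran from 0.534 for RpL19 (39.7 and 74.3) to 2.08 for RpL17 (135 and 64.9), leaving out RpS28a. For RpS28a the strongest summits of the replicates were different peaks, with a signal of 23.9 at 164 bp upstream in replicate 1 and 70.6 at 479 bp downstream in replicate 2, so their ratio compares no single peak. RpL34b was the other member above 2, with 168 and 82.2. The summits of the replicates lay a median of 13.5 bp apart at the members and 25 bp apart at the 2329 genes. They were within 50 bp of each other at 52 members (83.9%), against 69.4% of the 2329 genes. The conservative signal was close to the sum of the replicates' signals, with a median ratio of 1.00.

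Summits lay very close to the starts of these genes. The median distance to the nearest start was 23 bp (27 bp for the large, 18 bp for the small subunit), against 89 bp over all genes with a peak. Within 50 bp lay 51 summits (82.3%, against 30.3% of all genes), and within 100 bp lay 59 (95.2%, against 54.6%). The side was mixed, with 35 summits upstream and 27 downstream of the start (43.5% downstream, against 34.5% of all genes). The DNA fragments were 200 to 800 bp long, so the side of a summit this close to a start is uncertain. It changed between the replicates at RpL7, RpL18, RpL27, RpL37A and RpS29, among others. The split by annotation that follows has the same limit. By annotation, 30 summits fell in a 5′ UTR (48.4%, against 34.1%), 28 upstream of the gene (45.2%, against 52.2%), 2 in a coding exon (3.23%, against 1.53%), 1 in an intron (1.61%, against 12%) and 1 beyond the 3′ end. The summits in coding exons were those of RpL27A, 28 bp from the start, and RpLP2, 154 bp from it. Genes with more annotated starts have more chances to lie near a summit, and the members had a median of 2 starts against 1 for all genes. With 1 start per gene the median distance of the members was 34.5 bp. The median of all genes at that setting is not reported here, and the 89 bp above used all starts.

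**Figure D3:**
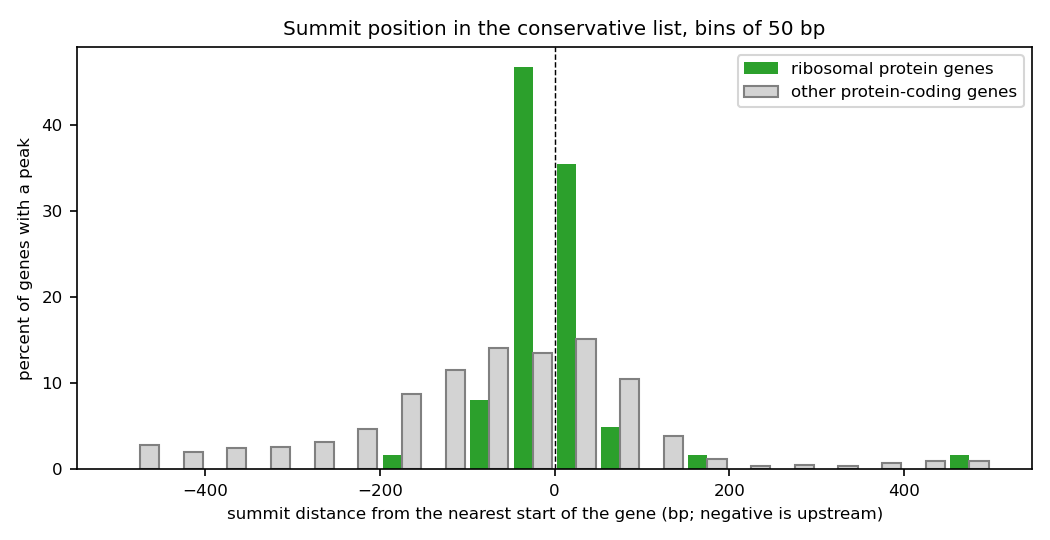
Percent of genes with a peak (y axis) by distance of the strongest conservative summit from the nearest start (x axis, bp, bins of 50 bp, negative is upstream), for ribosomal protein genes (n = 62) and other protein-coding genes (n = 2288). The 50 bp bins on either side of the start hold 46.8% and 35.5% of the ribosomal protein genes against 13.5% and 15.2% of the others.

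The summits furthest upstream were those of RpS20 (169 bp), RpL23A and RpL23 (both 91 bp). The furthest downstream were RpS28a (476 bp) and RpLP2 (154 bp), a protein of the ribosomal stalk. RpS28a was the member just inside the 500 bp window. Just outside it were RpL26, whose nearest conservative summit lay 674 bp away, RpS19b at 898 bp and RpS24 at 1022 bp.

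For RpS20 and RpS28a a neighbouring gene was the nearer one. The RpS20 summit lay 164 bp from the start of CG17271, and the RpS28a summit lay beyond the 3′ end of RpS28a and 49 bp from the start of Mgat2, which encodes an enzyme of N-glycan synthesis. The start of a different coding gene was nearer for these 2 members (3.23%), against 21.1% of all genes with a peak. Starts of non-coding genes were not compared. A start of another coding gene lay within 500 bp of the summit at 28 members (45.2%), close to the 44.9% of all genes. In 27 of these 28 cases that gene ran on the opposite strand. RpL13 shares its peak in this way with Dref, which encodes the factor that binds the DNA replication-related element. That summit (signal 264) lay 6 bp from the RpL13 start and 95 bp from the Dref start. RpL7 lay beside Ripalpha (summit 68 bp from its start), RpS27 beside Nup37 (140 bp), RpL14 beside Nelf-E (92 bp) and RpL28 beside eIF1 (344 bp). Reads at such a shared start cannot be assigned to 1 of the genes.

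Among the chromosome arms, 2R had a peak at 15 of 17 members (18.5% of all genes on that arm), 3R at 16 of 21 (16.6%), X at 10 of 13 (14.1%), 3L at 9 of 13 (18.4%) and 2L at 11 of 17 (16.4%). RpS3A is the 1 member on chromosome 4, where 6.25% of all genes had a peak, and it had one with a signal of 189. Ribosomal protein genes were shorter than other genes, with a median length of 1345 bp against 2165 bp for all. Within the span of 28 members lie snoRNA genes, 75 in all, whose products guide the modification of other RNAs. Of these 28 members 24 had a peak and 4 did not, beside 62 of all 82 members with a peak. Genes holding snoRNA genes were not counted over all protein-coding genes, so these counts have no comparison outside the members.

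No conservative peak was found at 20 members, 11 of the large and 9 of the small subunit. They fell into 3 kinds by the full ranked list that pairs the replicates, which holds peaks of any rank. In that list 75 members (91.5%) had a summit within 500 bp, against 65.9% of all genes. Of the 20, 12 had a ranked peak under the score minimum of 830 that the conservative list keeps, 7 had none, and RpL13A had one past the minimum.

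RpL13A had a ranked signal of 315, with 151 in replicate 1 and 156 in replicate 2, between those of RpS28b (318) and RpL32 (310). Its summit lay 26 bp upstream of the start, and its −log10 IDR was 5 in all 4 ranked lists. It was missing from each of the 4 lists past the threshold, and why is not stated in these sources. Of the 4387 ranked peaks past the minimum that pair the replicates, 192 were missing from the conservative list, and RpL13A was the 1 member among them. RpL13A is thus a gene with a strong ranked peak that is counted here as having none.

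The 12 genes under the minimum had ranked signals from 18.0 (RpS14a) to 91.1 (RpL36). RpL36 came closest and had a place in the pooled list. Its replicate 1 signal of 67.9, at 6 bp downstream of the start, passed the threshold. In replicate 2 its strongest summit had 35.2 and lay further off, at 173 bp downstream. RpL26 (55.5), RpS9 (49.5) and RpS5b (48.6) followed, with replicate signals between 17.6 and 32.7. RpL40, made as a fusion with ubiquitin, had 42.9, RpL35 had 41.2, and RpS3, a protein of the mRNA entry site, had 39.5. RpS13 had 34.9 at 157 bp and RpS24 had 19.0 at 57 bp upstream. The pooled list held a further weak RpS13 summit with a signal of 20.7. These signals were all below the members' conservative lower quartile of 128.

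The 7 genes with no ranked peak that pairs the replicates were RpL5, RpL9, RpL10, RpL15, RpL21, RpL38 and RpS27A. RpS27A, also a ubiquitin fusion, differed between the replicates: it had a signal of 67.7 in the replicate 2 list and 153 in the pooled list, and no ranked peak in replicate 1. RpL15 was the reverse, with 65.5 in the replicate 1 list and no ranked peak in replicate 2. RpL5, which binds the 5S rRNA, had only a weak ranked peak of 21.2 in replicate 1. RpL9, RpL10, RpL21 and RpL38 had no ranked peak within 500 bp in either replicate. Among these genes RpL5, RpL15 and RpL38 are known as genes of the heterochromatin around the centromeres. The nearest conservative summit lay 4322 kb from RpL15, 1246 kb from RpL38, 517 kb from RpL5, 228 kb from RpL21 and 150 kb from RpL10. These were the 5 members more than 100 kb from any conservative summit (6.10%), a share near the 4.91% of all genes. None of the 5 had a ranked peak that pairs the replicates, and among all 686 genes this far from a summit 25.5% had one.

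Paralogs differed in their peaks. In fly ribosomal protein pairs 1 copy is often used throughout the body and the other mainly in the gonads, as is known for RpS5b, RpS10a and RpS19b. The 6 pairs whose symbols differ only in a or b gave 12 members. Both copies had a conservative peak in 2 pairs, 1 copy in 4 pairs, and neither in no pair. That is 8 of 12 genes, beside 54 of the 70 members outside pairs. The start regions of 4 pairs are shown, because the copies share little of this sequence: the longest stretch common to both copies within 250 bp of their starts was 9 to 14 bp over the 6 pairs.
RpS19a (chrX:16637834-16637914, plus strand): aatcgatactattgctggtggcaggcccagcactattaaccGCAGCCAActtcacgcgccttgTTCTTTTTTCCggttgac
RpS19b (chr3R:23933510-23933590, minus strand): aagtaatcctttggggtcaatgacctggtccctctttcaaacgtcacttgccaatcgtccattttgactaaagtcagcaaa
RpS10a (chr3R:27652700-27652780, plus strand): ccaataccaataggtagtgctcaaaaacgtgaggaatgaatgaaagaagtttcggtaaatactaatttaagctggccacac
RpS10b (chrX:19597980-19598060, plus strand): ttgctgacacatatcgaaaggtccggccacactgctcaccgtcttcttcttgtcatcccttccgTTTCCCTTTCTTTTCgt
RpS5a (chrX:17148244-17148324, minus strand): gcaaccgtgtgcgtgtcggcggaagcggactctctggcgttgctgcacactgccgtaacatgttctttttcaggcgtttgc
RpS5b (chr3R:14901543-14901623, minus strand): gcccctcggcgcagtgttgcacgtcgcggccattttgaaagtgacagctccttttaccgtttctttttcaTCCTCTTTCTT
RpL34a (chr3R:26059247-26059327, minus strand): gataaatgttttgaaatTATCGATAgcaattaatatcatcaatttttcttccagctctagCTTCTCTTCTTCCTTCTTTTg
RpL34b (chr3R:9401206-9401286, minus strand): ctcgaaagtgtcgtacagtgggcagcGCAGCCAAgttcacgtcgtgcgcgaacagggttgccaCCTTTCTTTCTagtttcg

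RpS19a had a conservative signal of 165, with 83.9 in replicate 1 and 67.7 in replicate 2. RpS19b had only a ranked peak of 24.5 at 380 bp, with 10.5 and 11.5. RpS10b had 184, with 92.5 and 92.0, and its summit 4 bp from the start. RpS10a had a ranked peak of 27.0 at 328 bp. Its strongest summits in the replicates lay elsewhere, with 17.2 at 474 bp upstream in replicate 1 and 13.9 at 102 bp upstream in replicate 2. In both of these pairs the weaker copy also lacks the pyrimidine run shown in capitals in the stronger one. RpS5a had 161, with 97.5 and 59.8, and RpS5b a ranked peak of 48.6, with 25.6 and 23.5. Here the sequence differed the other way, since the run of 10 or more was found in RpS5b and not in RpS5a. The ranked signals of the paired replicates were 6.74, 6.80 and 3.31 times as high in RpS19a, RpS10b and RpS5a as in the other copy. These copies were also higher in both replicates, though the RpS10a values come from different summits.

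RpS14a and RpS14b lie next to each other on X. RpS14b had a conservative signal of 137, with 62.7 in replicate 1 and 69.6 in replicate 2, and its summit 27 bp upstream of its start. RpS14a had 45.0 and 37.6 in the replicates' own ranked lists, at 19 bp upstream and 19 bp downstream, of which the second passed the threshold. The list pairing the replicates gave RpS14a only a peak of 18.0 at 452 bp, so its 7.62-fold lower value there refers to another summit than those of the replicates. In the replicates' own lists RpS14b was the higher copy both times, but the gap was smaller.

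Both copies had a peak in the RpL34 and RpS28 pairs. RpL34b had a conservative signal of 228, with 168 in replicate 1 and 82.2 in replicate 2. RpL34a had 109, with 45.8 and 59.5, so RpL34b was 2.09 times as high in the conservative list and the higher copy in both replicates. RpS28b was 2.26 times as high as RpS28a (318 and 141). The RpS28a peak is the one that lies beyond the gene's end near Mgat2, so RpS28a had no conservative summit near its own start.

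**Figure D4:**
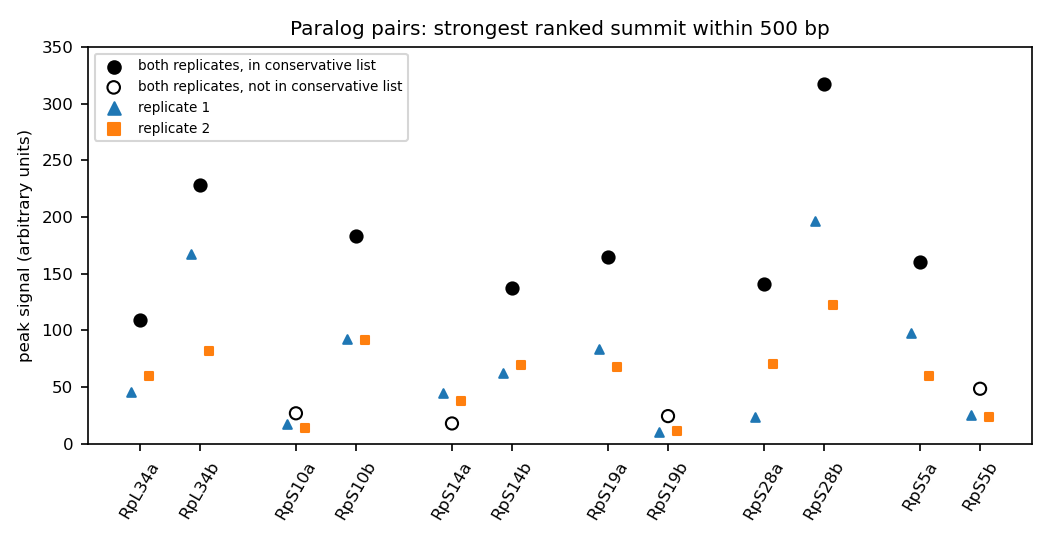
Peak signal (y axis, arbitrary units) of the strongest ranked summit within 500 bp for both copies of the 6 paralog pairs (x axis): circles are the list pairing the replicates, filled where the conservative list holds the peak, and triangles and squares are replicates 1 and 2. In every pair 1 copy is higher in both replicates, such as RpL34b over RpL34a (228 and 109 in the list pairing the replicates) and RpS10b over RpS10a (184 and 27.0).

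Of 10 listed relatives that the symbol rule leaves out, 4 had a conservative peak. RpS28-like, also outside the rule but not in that list, had no peak, and its nearest conservative summit lay 721 bp away. RpS15Aa had a signal of 192 (121 in replicate 1 and 70.4 in replicate 2), RpL10Ab had 161 (88.4 and 84.5), RpL37-1 had 143 (82.5 and 62.1), and RpLP0-like had 81.2 (64.5 and 29.1). Their copies RpL10Aa and RpL37-2 had ranked peaks of 4.87 and 29.3. RpS15Ab had a ranked peak of 70.4 that passed the threshold in the pooled and the replicate 2 list. RpL22-like, known for its use in the germline, had no ranked peak that pairs the replicates, while RpL22 had a conservative signal of 199.5. RpL24-like and RpL7-like, relatives of yeast ribosome assembly factors, had ranked peaks of 52.2 and 51.0, far below RpL24 and RpL7.

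Core promoter motifs were searched within 50 bp of the same start on both strands. TATA boxes (TATAAA) were found in 3 of 82 members (3.66%, against 16.8% of all genes) and the initiator core (TCAGT) in 7 (8.54%, against 31.4%). The TCT element, searched as TCTTT within 5 bp of the start on the sense strand, was in 10 members (12.2%, against 0.802%). In 8 of them its C lay 2 bp downstream of the annotated start. That is the last place the window allows, so a TCTTT beginning further downstream was not counted. Read from the most upstream start of each gene, the TCT element was in 6 members (7.32%, against 0.802%). CTTT within 10 bp of the start, chosen after the sequences were seen, was in 58.5% of members and 9.12% of all genes. A match describes letters in a window and shows no bound factor.

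Of the longer motifs, the DNA replication-related element (TATCGATA) was found in 10 members (12.2%, against 5.48%) and the core of Motif 1 (GGTCACAC) in 10 (12.2%, against 5.65%). GAGA repeats (GAGAGAG) were found in 0 members, against 1.17% of all genes. The E-box CACGTG, the site known for Myc and its partner Max, was in 6 members (7.32%, against 1.97%): RpL6, RpL7, RpL11, RpL32, RpL34b and RpS28b. All 6 had a peak, from the weakest member, RpL6 at 64.0, to the strongest, RpL7 at 492, with a median of 269. Over all protein-coding genes, 55 of the 275 with this E-box had a peak. Within 250 bp of the start 30 members held it, and 25 of them had a peak, beside 62 of all 82 members. Members with the DNA replication-related element had a peak in 8 of 10 cases, and their median signal was 129, below the 183 of the other members with a peak. The TCT element was found in 7 of 62 members with a peak and 3 of 20 without.

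**Figure D5:**
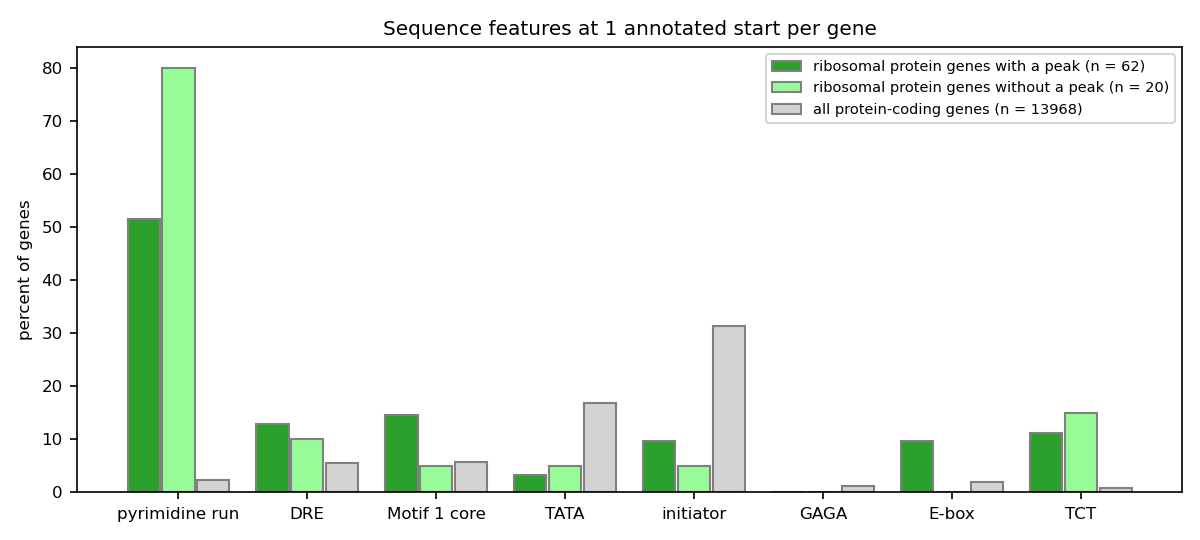
Percent of genes (y axis) whose start region holds each feature (x axis), for ribosomal protein genes with a conservative peak, those without, and all protein-coding genes: the pyrimidine run is at least 10 bases within 20 bp, TCT within 5 bp, and the other motifs within 50 bp. The run is found in 51.6% and 80% of ribosomal protein genes against 2.28% of all genes, and the initiator and TATA motifs are rarer in them than in all genes.

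The words GCAGCCAA and TGGTATTT recurred upstream of the starts. They too were chosen after the sequences were seen, and were counted from 100 bp before to 20 bp after the start. TGGTATTT was in 14 members (17.1%, against 3.44% of all genes). GCAGCCAA was in 5 members (6.10%, against 0.716%): RpS21, RpL28, RpL34b, RpS19a and RpS28b, which all had a peak, with signals of 189, 292, 228, 165 and 318. Over all protein-coding genes, 18 of the 100 with GCAGCCAA had a peak, near the 16.8% of all genes. The start regions of RpL28 and RpS28b show the word with the pyrimidine run downstream of it, as in RpL34b and RpS19a above.
RpL28 (chr3L:3222938-3223018, minus strand): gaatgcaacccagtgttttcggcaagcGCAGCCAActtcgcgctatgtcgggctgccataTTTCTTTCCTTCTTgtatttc
RpS28b (chrX:9554563-9554643, plus strand): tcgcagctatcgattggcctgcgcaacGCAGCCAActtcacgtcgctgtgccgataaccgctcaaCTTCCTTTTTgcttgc

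Other genes of ribosome production, from lists chosen with earlier results known, are given for comparison by counts alone. Mitochondrial ribosomal protein genes had a conservative peak in 14 of 73 cases (19.2%), near the 16.8% of all genes, with a median signal of 137. In the replicates 14 and 17 of them had a peak. Ribosome biogenesis factors had a peak in 8 of the 24 listed genes found (33.3%), with a median signal of 78.9. They ran from Non1 (57.6) to eIF6 (627), which keeps the subunits apart. Nucleolar genes were mixed: NHP2, Nopp140 (118), Ns1 (79.5) and mod (78.4) had a peak, and Fib, Nop56, nop5 and Nop60B had none. The list also holds Rrp1, which in flies encodes a DNA repair enzyme and had no peak. Regulators of growth and of ribosomal genes had a peak in 11 of 18 cases (61.1%), with 7 in replicate 1 and 12 in replicate 2. Among them were REPTOR (431), a transcription factor downstream of TOR, Thor (258), the fly 4E-BP, and Trf2 (172), which acts at TCT promoters. Myc had 136 and Max 88.0, while S6k and Tbp had none.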

How the data were processed

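The deposited files were peak lists on dm6 from 2 replicates of 1 group, called by the authors per replicate and on both replicates; no aligner or peak caller is named in the sources used here. Per the deposited values, each list came ranked and past an IDR threshold, with a score (scaled IDR, at least 830 past the threshold), a signal on an unstated scale, and in ranked lists the −log10 of the global IDR, all as the authors made them. The other deposited column used was the summit's place in the peak. Lists past the threshold held 4202 (conservative), 6176 (pooled), 3554 (replicate 1) and 4106 (replicate 2) peaks. They give no read totals, so depth is unknown, and their number limits the precision.

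Computed here with Python 3.11.15: summits on the arms were placed on Ensembl release 115 gene models (BDGP6.54), and the strongest summit within 500 bp of any start was kept per gene. Motifs were read from 1 start per gene. No test was run; counts and medians stand beside those of all genes. The assignment was tested on simulated data. Alternatives were window size, nearest start, list, stronger peaks and single replicates. Named genes were the 12 strongest, paralogs, members without a peak or with one in neither replicate list, and those at the ends of the distance range; exceptions are stated, and a few values of single genes are not reported here. Members and lists were chosen with earlier results of these data known.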

Additional observations from a re-analysis of the deposited data

How the results depend on the processing

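The members' share of 75.6% was 72.0% when the peak itself had to cover the start, 91.5% with peaks of any rank, 79.3% in the pooled list, 69.5% with the stronger 50% of peaks, and 70.7 to 75.6% in single replicates. For the large subunit these were 73.9, 87.0, 78.3, 73.9 and 73.9 to 76.1%, and 78.3% with a window of 1000 bp. For the small subunit they were 97.2% at any rank, 63.9% in the stronger peaks and 63.9 to 77.8% in single replicates. The median signal was 182 in the stronger peaks and 81.4 to 92.7 on the scale of single replicates. The share downstream of the start was 40.3% with 1 start per gene, 46.2% pooled, 40.4% in the stronger peaks and 39.7 to 41.9% in single replicates. The median distance was 34.5 bp with 1 start per gene and 19 to 24.5 bp in single replicates. Within 250 bp of the start, members held the DNA replication-related element in 26.8%, the E-box in 36.6%, TATA in 54.9%, TCT in 89.0% and the initiator in 50%; all genes held these in 9.69, 7.02, 54.6, 49.0 and 66.6%. Assigning a summit to its nearest start alone dropped RpS20 and RpS28a, and a window of 250 bp dropped RpS28a. No paired analysis was possible because there was 1 group. Depth is unknown, so a gene without a peak is one where none was detected.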
